A study of Mus musculus with 8 samples.

Results

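Hepatic expression of the sirtuin family, Sirt1 to Sirt7, was compared between mice lacking SIRT7 and wild-type (WT) mice, in order to ask whether the loss of 1 sirtuin was accompanied by altered mRNA levels of the others. Members were every probe set, a group of short oligonucleotides that reads 1 transcript, whose annotation gave exactly 1 gene symbol, that of a sirtuin. This rule found 5 probe sets among the 22626 tested, 1 each for Sirt1, Sirt2, Sirt3, Sirt4 and Sirt7, whereas Sirt5 and Sirt6 had no such probe set and their levels are not analysed here. The groups were 4 livers labelled SIRT7 KO and 4 livers labelled WT, with total RNA of each liver on 1 Affymetrix GeneChip mouse array. SIRT7 KO denotes the SIRT7-/- mice of the study, which lack the gene in the whole animal. No label names a diet or another treatment for these mice, and none of the sources ties an array to a strain, sex, age, litter or batch, although the study speaks of WT littermates, so that p-values measure only the spread between these samples. In whole liver, fewer cells of a type and less RNA per cell cannot be told apart.

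Sirtuins are enzymes that use NAD+ to take acetyl and other acyl groups off lysines, which ties their activity to the metabolic state of the cell. SIRT1, SIRT6 and SIRT7 are mostly nuclear and act on histones and transcription factors, SIRT2 is mostly cytosolic and acts on tubulin among others, and SIRT3, SIRT4 and SIRT5 reside in mitochondria, where they modify enzymes of fuel use. SIRT7 is concentrated in the nucleolus, and in the liver sirtuins are studied for their roles in fat metabolism and the response to stress.

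The genes of the family lie on 5 mouse chromosomes and several have a close neighbour. In the GRCm38.p6 assembly, Sirt7 is on chromosome 11 (chr11:120618371-120625014, minus strand), and its start lies 102 bases from the end of Mafg, which is read on the same strand, with Pcyt2 423 bases beyond its other end. Sirt1 (chr10:63319005-63339035) and Sirt6 (chr10:81621787-81627792) share chromosome 10, and Sirt2 (chr7:28766752-28788665) and Sirt3 (chr7:140863663-140882309) share chromosome 7. Sirt4 is at chr5:115478006-115490264 and Sirt5 at chr13:43365389-43395203. The start of Sirt3 lies 84 bases from that of Psmd13, the start of Sirt2 107 bases from that of Nfkbib, and that of Sirt6 28 bases from that of Ankrd24, each neighbour being read on the opposite strand.

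The stretches around the starts of Sirt7, Sirt3 and Sirt1 are shown, Sirt7 because its result and that of its neighbours are the largest contrast below, Sirt3 because it shares the stretch with Psmd13, and Sirt1 because it holds a repeated motif. They are RefSeq sequences of GRCm38.p6, given 5′ to 3′ on the strand of the sirtuin, the minus strand in all 3 cases, and each ends with the first 50 transcribed bases. The stretch of Sirt7 (chr11:120624965-120625116) begins just past the end of Mafg, that of Sirt3 (chr7:140882260-140882393) begins just past the first base of Psmd13, and that of Sirt1 (chr10:63338986-63339185) begins 150 bases before the start. Capitals mark the letters CCGGAA, the core bound by ETS factors such as ELK4, on either strand, or CACGTG, an E-box.
Sirt7: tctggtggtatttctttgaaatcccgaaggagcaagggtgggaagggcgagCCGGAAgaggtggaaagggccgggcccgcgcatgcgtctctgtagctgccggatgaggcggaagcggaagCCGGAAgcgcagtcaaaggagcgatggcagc
Sirt3: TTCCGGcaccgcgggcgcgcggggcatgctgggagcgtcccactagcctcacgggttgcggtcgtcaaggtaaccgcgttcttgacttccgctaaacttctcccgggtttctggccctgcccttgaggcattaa
Sirt1: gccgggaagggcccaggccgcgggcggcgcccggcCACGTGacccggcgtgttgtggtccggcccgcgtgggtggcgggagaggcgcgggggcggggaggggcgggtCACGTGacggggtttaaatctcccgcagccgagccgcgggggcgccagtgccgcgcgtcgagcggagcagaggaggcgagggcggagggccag
The motifs were chosen after these windows had been read, and a match is a description of letters, not a site. Windows of 250 bases before to 50 after a start were searched on both strands. The ETS core stood in 14.9% of 32851 such windows, with more than 1 copy in 3.59%, and Sirt7 held 2 copies, at positions -51 and +20 from its start. In Sirt3 the single copy is the reversed TTCCGG at position -84, beside the first base of Psmd13, and a window of Sirt4 and 1 of Sirt6 also held 1 copy. The E-box stood in 7.15% of windows, with more than 1 copy in 0.594%, and of the 9 windows of the 7 sirtuins only that of Sirt1 held it, with 2 copies at -115 and -43. All sirtuin windows held more CpG than the median of 7 over all windows, from 15 for Sirt4 and Sirt5 to 47 for Sirt1, with 17 for Sirt7.

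All 8 arrays had a median log2 expression between 6.30 and 6.36, and hepatocyte markers, Alb and Apoa1 among them, averaged 13.95 to 13.99 on SIRT7 KO arrays and 14.02 to 14.15 on WT arrays, with 0 of 8 measured markers called by limma and 2 at an unadjusted p under 0.05. The SIRT7 KO averages thus all lay below the WT averages, and 7 of the 8 differences were negative, with a median of -0.076. A pair of technical measures moved with genotype, while a further one, for actin, overlapped between the genotypes. The 3′ minus 5′ signal of the GAPDH control probe sets, a measure of RNA integrity, averaged 0.107 ± 0.082 in SIRT7 KO and 0.223 ± 0.055 in WT livers (log2, SD, n = 4 each, exact two-sided permutation p = 0.0286, the smallest that 4 against 4 allow). The 3′ minus 5′ signal of the actin control probe sets, which also measures RNA integrity, differed by -0.1061 log2 units (SIRT7 KO minus WT). Its highest SIRT7 KO value, 1.631, lay above its lowest WT value, 1.582 (exact two-sided permutation p = 0.2571). The spike-in controls averaged 8.52 ± 0.098 in SIRT7 KO and 8.68 ± 0.063 in WT livers (log2, SD, n = 4 each). Controls for hybridisation and for labelling were not separated. The exact permutation p of the spike-in average was 0.0286, and 42 of 45 spike-in probe sets were lower in SIRT7 KO. The part of these measures in the small differences below was not tested beyond the fits with the GAPDH measure as a covariate or the spike-ins as the scale.

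Sirt7, the targeted gene, was the only measured sirtuin that passed the test with all arrays, and it fell. Its log2 expression was 4.73, 4.53, 4.40 and 4.90 on SIRT7 KO arrays 1 to 4, against 8.98, 8.97, 8.88 and 8.57 on WT arrays 1 to 4. All 4 SIRT7 KO arrays lay far below all 4 WT arrays. The mean fell to 4.64 ± 0.22 in SIRT7 KO livers, against 8.85 ± 0.19 in WT livers (SD, n = 4 each), a log2 difference of -4.21 (SE 0.13, 95% interval -4.50 to -3.92, limma adjusted p = 9.2e-07), or 18.5-fold. Over all probe sets, 4.31% were called in either direction at the adjusted p under 0.15 used throughout, the false discovery rate of the study's own methods, and 2.39% were called lower. Sirt7 ranked first by p and second by size of difference. The SIRT7 KO mean stood at the 26.4 percentile of all probe sets, and 2 of the 4 SIRT7 KO arrays lay above the lower quartile of their own array, so that the remaining signal was in the range of dim probe sets and the fold is bounded by background. Whether this probe set (1424238_at) reads the deleted part of Sirt7 is not stated in the sources used here.

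**Figure D1:**
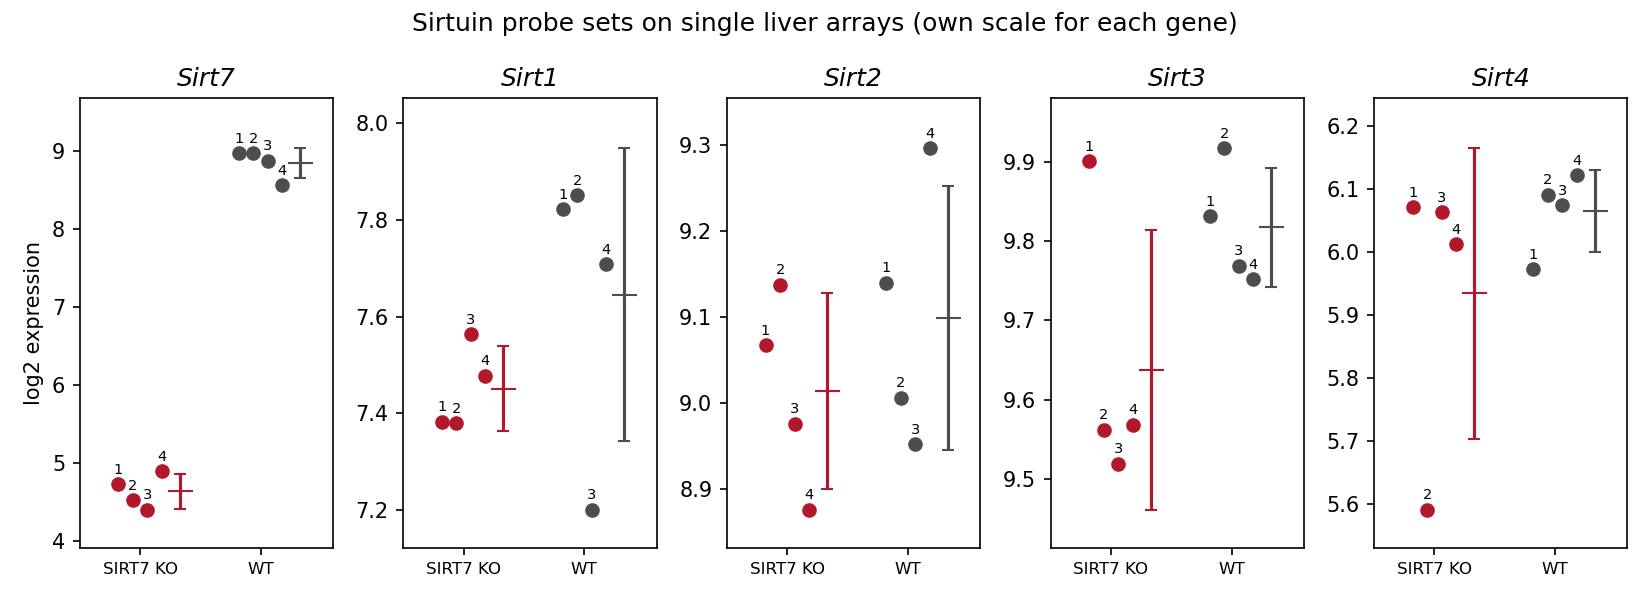
Log2 expression of the 5 sirtuin probe sets on each array, with SIRT7 KO (red) left of WT (grey) and a separate vertical scale for each gene. Numbers are the array numbers and the bars at the side give mean ± SD of 4 arrays. The groups of Sirt7 are apart (difference -4.21), whereas those of the other 4 overlap, with WT array 3 low in Sirt1, SIRT7 KO array 1 high in Sirt3 and SIRT7 KO array 2 low in Sirt4.

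Among the other 4 measured sirtuins, 0 passed the test, by limma at an adjusted p under 0.15 or at an unadjusted p under 0.05, and the genotypes of all 4 overlapped, where 9.35% of all probe sets had genotypes that did not overlap. Their differences were all negative, with a median of -0.155 log2 units, while 50.8% of all probe sets were negative with a median of -0.0031, but scaling the arrays to the spike-ins turned Sirt2 (0.072) and Sirt4 (0.026) to positive values and left Sirt1 at -0.038 and Sirt3 at -0.023. That scaling moved the median of all probe sets to 0.15.

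Sirt1 encodes the nuclear deacetylase of PGC-1α, FOXO factors and p53. It had a log2 expression of 7.38, 7.38, 7.56 and 7.48 on SIRT7 KO arrays 1 to 4, against 7.82, 7.85, 7.20 and 7.71 on WT arrays 1 to 4. WT arrays 1, 2 and 4 were above every SIRT7 KO array, while WT array 3 was below all of them, and the spread was 3.45 times wider in WT. The difference of means was -0.19 (SE 0.14, 95% interval -0.50 to 0.11, adjusted p = 0.575), which places SIRT7 KO at 87.4% of the WT level with an interval of 70.5% to 108%. This call rested on 1 array. Without WT array 3 the difference was -0.34 (SE 0.079) and passed at an adjusted p of 0.114, and the count of sirtuins called was then 2, against 1 with all arrays.

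Sirt2, the cytosolic tubulin deacetylase, showed the smallest of the differences. Its log2 expression was 9.07, 9.14, 8.98 and 8.88 on SIRT7 KO arrays 1 to 4, against 9.14, 9.01, 8.95 and 9.30 on WT arrays 1 to 4. The values were interleaved, and the highest of all was WT array 4. The means of 9.01 ± 0.11 in SIRT7 KO and 9.10 ± 0.15 in WT livers (SD, n = 4 each) differed by -0.085 (SE 0.094, 95% interval -0.30 to 0.13, adjusted p = 0.741). SIRT7 KO was thus at 94.3% of WT, with an interval of 81.5% to 109%.

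Sirt3, the main deacetylase of the mitochondrial matrix, had the smallest p of the other 4. It was measured at 9.90, 9.56, 9.52 and 9.57 log2 units on SIRT7 KO arrays 1 to 4, against 9.83, 9.92, 9.77 and 9.75 on WT arrays 1 to 4. SIRT7 KO arrays 2, 3 and 4 lay below every WT array, but SIRT7 KO array 1 lay among the highest WT arrays. The means of 9.64 ± 0.18 in SIRT7 KO and 9.82 ± 0.075 in WT livers (SD, n = 4 each) differed by -0.18 (SE 0.094, 95% interval -0.39 to 0.032, adjusted p = 0.426), so that SIRT7 KO was at 88.3% of WT with an interval of 76.2% to 102%. Without SIRT7 KO array 1 the difference was -0.27, and with an adjusted p of 0.162 it still missed the threshold.

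Sirt4, a mitochondrial sirtuin known to restrain glutamate dehydrogenase and to act on enzymes of leucine breakdown, varied mostly through 1 array. Its log2 expression was 6.07, 5.59, 6.06 and 6.01 on SIRT7 KO arrays 1 to 4, against 5.97, 6.09, 6.07 and 6.12 on WT arrays 1 to 4. SIRT7 KO array 2 was low, and the other SIRT7 KO arrays fell within the WT range. The means of 5.93 ± 0.23 in SIRT7 KO and 6.07 ± 0.065 in WT livers (SD, n = 4 each) differed by -0.13 (SE 0.11, 95% interval -0.38 to 0.12, adjusted p = 0.645), that is 91.4% of WT with an interval of 76.9% to 108%. Without SIRT7 KO array 2 the difference was -0.016.

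**Figure D2:**
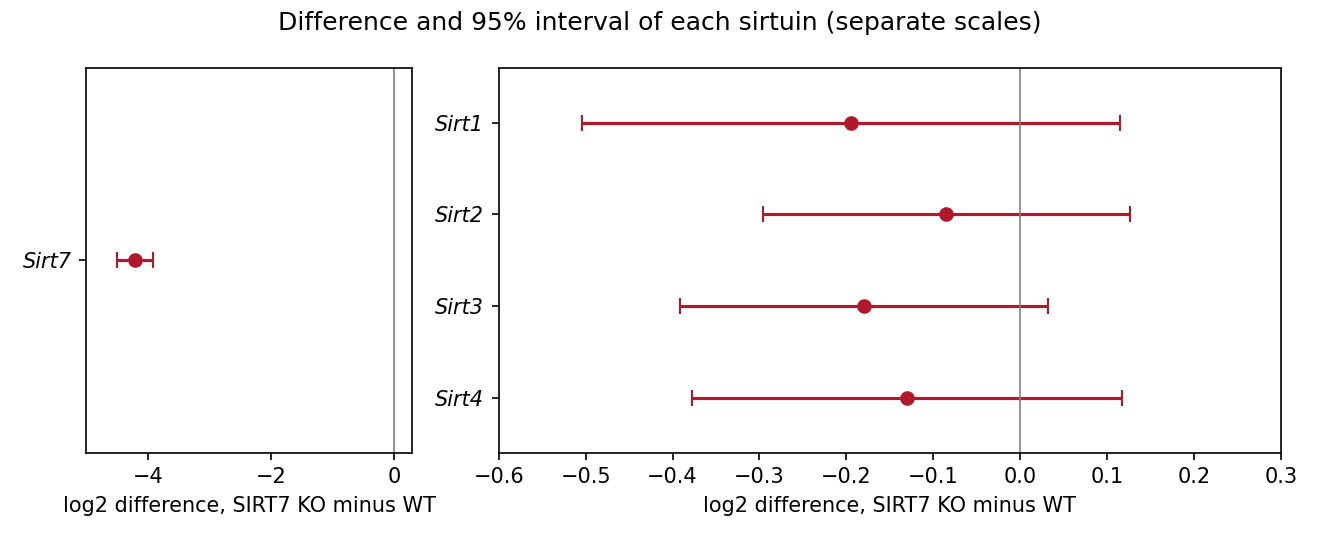
Log2 difference (SIRT7 KO minus WT) of each measured sirtuin with its 95% interval from limma, Sirt7 at the left and the other 4 on a wider scale at the right. The interval of Sirt7 runs from -4.50 to -3.92, and the intervals of Sirt1 to Sirt4 all include 0.

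The widest of these intervals, that of Sirt1, reached down to a fall of 1.42-fold, and those of Sirt2, Sirt3 and Sirt4 ended at smaller falls. With the GAPDH measure as a covariate the differences were -0.29 for Sirt1, -0.20 for Sirt2, -0.35 for Sirt3 and -0.22 for Sirt4, with adjusted p between 0.316 and 0.678, and 43 probe sets were called in all, against 975 without it. Sirt7 stayed at -4.18 in that fit (adjusted p = 0.000135). The GAPDH measure did not overlap between the genotypes (at most 0.160 in SIRT7 KO and at least 0.163 in WT livers). The fit with this covariate therefore separates it poorly from genotype, and its errors were wider, as for Sirt1 (SE 0.20, against 0.14 without it).

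**Figure D3:**
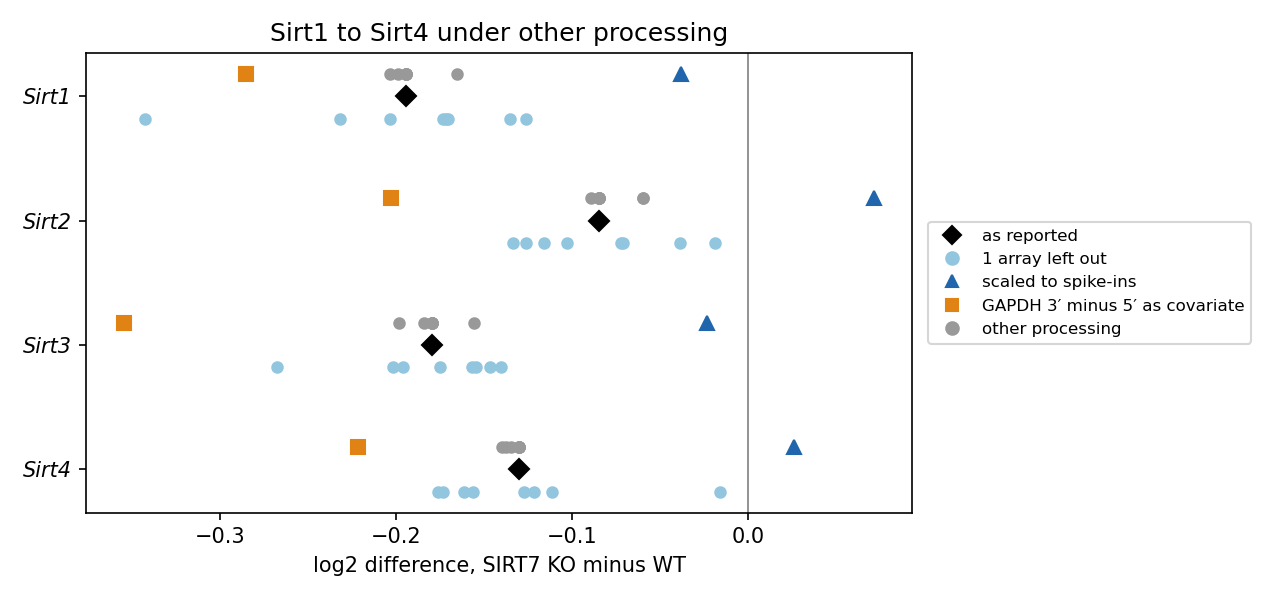
Log2 difference (SIRT7 KO minus WT) of Sirt1, Sirt2, Sirt3 and Sirt4 as reported (black diamond) and under the alternatives, with 1 array left out (light blue), scaling to spike-ins (triangle), GAPDH 3′ minus 5′ as covariate (square) and other processing (grey). Spike-in scaling lies at the right for each gene and above 0 for Sirt2 (0.072) and Sirt4 (0.026), and the leftmost light blue point of Sirt1 is the fit without WT array 3 (-0.34).

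The genes around the 7 sirtuins were compared next, since position was not used to choose the members and 3 of the family share a start region with a neighbour. Of 14 measured nearest protein-coding neighbours, each read by its brightest probe set, 1 was called, beside 2.17% of all genes called higher and 2.48% called lower. It was Pcyt2, an enzyme of phosphatidylethanolamine synthesis, 423 bases from Sirt7. Its log2 expression was 6.61, 6.99, 6.81 and 6.52 on SIRT7 KO arrays 1 to 4, against 11.27, 11.06, 11.54 and 10.98 on WT arrays 1 to 4. The groups were far apart, with a difference of -4.48 (SE 0.14, adjusted p = 9.2e-07), or 22.4-fold. Mafg, a small MAF transcription factor on the other side of Sirt7, did not pass the test at -0.15 (SE 0.096, adjusted p = 0.524), and its groups overlapped.

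The partners that share a start region with a sirtuin did not pass the test either. Psmd13, a subunit of the proteasome lid, differed by -0.12 (SE 0.070, adjusted p = 0.465) beside the -0.18 of Sirt3. Nfkbib, which encodes the NF-κB inhibitor IκBβ, differed by 0.054 (SE 0.10, adjusted p = 0.864) beside the -0.085 of Sirt2. Ankrd24 differed by 0.16 (SE 0.11, adjusted p = 0.588) beside Sirt6, and Tle6 on the other side of Sirt6 by 0.047 (adjusted p = 0.87). For Sirt5, the measured neighbours Nol7 (-0.11, adjusted p = 0.548) and Phactr1 (-0.19, adjusted p = 0.536, with 2 unmeasured genes between) were not called. Dnajc12, 43407 bases from Sirt1, had the widest error, with -0.70 (SE 0.39, adjusted p = 0.458), while Herc4, Hnrnpl, Ric8a, Pla2g1b and Pxn lay between -0.20 and 0.096.

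**Figure D4:**
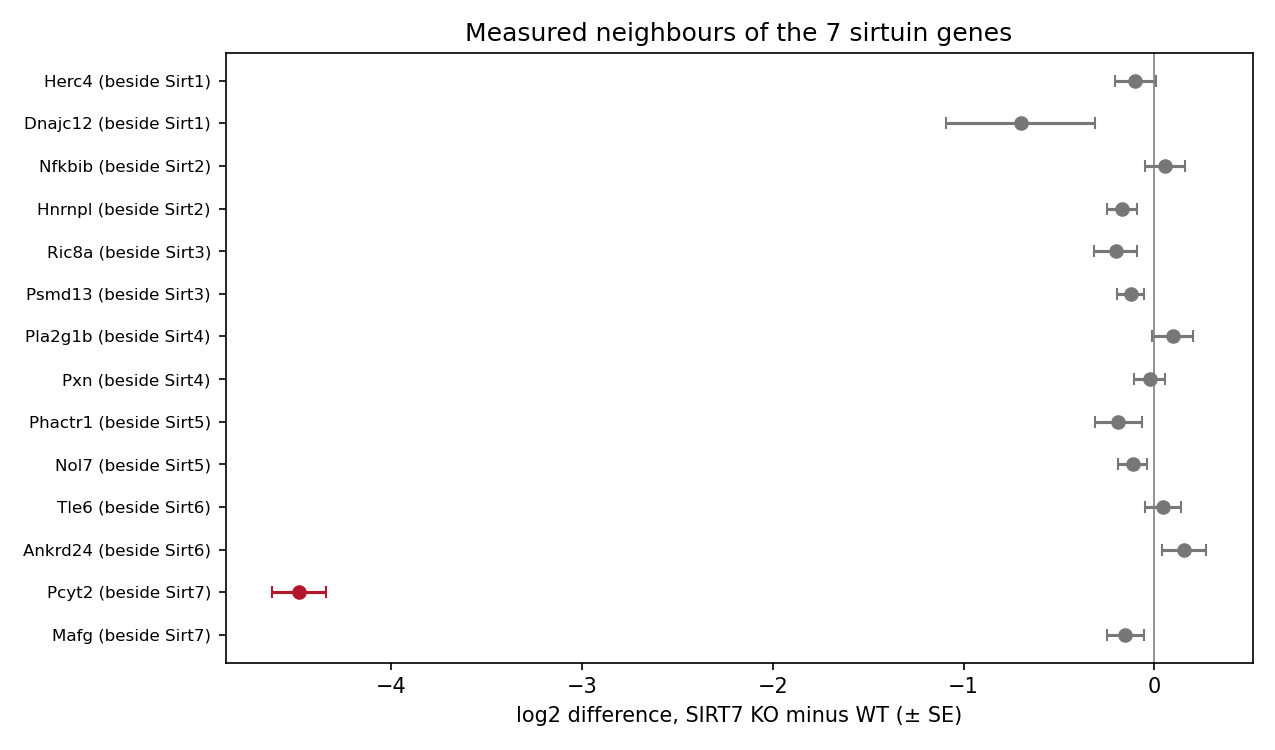
Log2 difference (SIRT7 KO minus WT, ± SE) of the nearest measured protein-coding neighbours of the 7 sirtuin genes, with genes past an adjusted p of 0.15 in red. Pcyt2, beside Sirt7, lies at -4.48, and the other 13 lie between -0.70 and 0.16.

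The enzymes and proteins that work with the family were examined in 8 lists, each gene taken by its brightest probe set. Some genes stand in more than 1 list and are counted once in the total. Of 82 measured genes, 2 were called higher and 1 lower (3.66%), where 2.17% of 12393 genes were called higher and 2.48% lower. The median of the 82 genes was -0.016, and that of all genes -0.0031.

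The list of sirtuin regulators held no called gene among 13 measured of 14 (limma, 2 at an unadjusted p under 0.05), and its median was -0.0078. Besides inhibitors and activators, it held substrates and partners of SIRT7, such as Polr1e, Rrp9 and Gabpb1. Many of its genes also stand in the SIRT7 list below, so the results of both lists overlap. Hic1, which encodes a repressor known to bind the SIRT1 promoter in human cells, had a difference of 0.22 (SE 0.079, adjusted p = 0.239), with SIRT7 KO values of 6.95 to 7.11 and WT values of 6.66 to 6.90 that did not overlap. Elk4, an ETS factor that recruits SIRT7 in human cells, differed by -0.18 (SE 0.080, adjusted p = 0.335), and its other 2 probe sets had the opposite sign.

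Synthesis of NAD+, the cosubstrate of all sirtuins, held no called gene among 7 measured of 12 (limma, 3 at an unadjusted p under 0.05, median 0.027). These 7 include Nadk and Nnmt, which do not make NAD+ themselves. Nampt, the rate-limiting enzyme of the salvage pathway, was named after its value was seen, and differed by -0.039 (SE 0.30, adjusted p = 0.97), with 9.75 on WT array 4 as its highest value. Nadk, the kinase that makes NADP+, differed by 0.32 (SE 0.11, adjusted p = 0.202). Qprt, an enzyme of the synthesis from tryptophan, differed by -0.23 (SE 0.080, adjusted p = 0.216), and its 4 SIRT7 KO values lay below its 4 WT values.

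The other enzymes that consume NAD+ held both genes that rose by their brightest probe set. They encode ADP-ribosyltransferases that are known to be induced by interferon. Parp12 rose, with 9.06, 9.33, 9.60 and 9.58 on SIRT7 KO arrays 1 to 4, against 8.65, 8.95, 8.87 and 8.76 on WT arrays 1 to 4. All SIRT7 KO arrays were above all WT arrays, and the difference was 0.59 (SE 0.13, adjusted p = 0.0776). Parp9 had 10.21, 10.51, 10.60 and 10.34 on SIRT7 KO arrays 1 to 4, against 9.97, 10.14, 10.05 and 10.13 on WT arrays 1 to 4, a difference of 0.34 (SE 0.093, adjusted p = 0.135) with no overlap either. The other 10 of 12 measured members, of 16 listed, did not pass, the median of the list was 0.11, and Parp1, the main consumer of NAD+ in the nucleus, differed by -0.061 (adjusted p = 0.761). Parp3 differed by 0.34 (SE 0.12, adjusted p = 0.229) by its brightest probe set, while its other probe set was called higher (0.37, SE 0.10, adjusted p = 0.146). The call of Parp9 was lost in 7 of 8 fits that left out 1 array, all but that without SIRT7 KO array 1, with adjusted p up to 0.291, and that of Parp12 without SIRT7 KO array 4 (adjusted p = 0.194) or WT array 1 (adjusted p = 0.198). With the GAPDH covariate neither was called, at differences of 0.81 (SE 0.15, adjusted p = 0.168) for Parp12 and 0.42 (SE 0.13, adjusted p = 0.322) for Parp9. Parp9 was also lost with the replicate block (adjusted p = 0.171) and with centring on array medians (0.155).

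Classical histone deacetylases, which need zinc in place of NAD+, held no called gene among 8 measured of 11 (limma, 3 at an unadjusted p under 0.05, median -0.055). Hdac11 differed by -0.28 (SE 0.11, adjusted p = 0.262), and Hdac9 by 0.40 (SE 0.15, adjusted p = 0.263) at a low level of 4.60 in SIRT7 KO and 4.20 in WT livers.

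Nuclear targets of SIRT1 and SIRT6 held no called gene among 13 measured of 15 (limma, 3 at an unadjusted p under 0.05), and 11 of the 13 differences were negative, with a median of -0.11, which spike-in scaling turned to 0.043. Stk11, the kinase LKB1 that activates AMPK, differed by -0.21 (SE 0.062, adjusted p = 0.157), and Foxo1, a transcription factor of the fasting response, by -0.27 (SE 0.10, adjusted p = 0.263), in both cases with all SIRT7 KO arrays below all WT arrays but with 1 other probe set of the opposite sign. Of the substrates and partners of SIRT7, 0 of 15 measured genes (16 listed) were called by limma and 3 were at an unadjusted p under 0.05, and 12 differences were negative, at a median of -0.11 that spike-in scaling turned to 0.051. Smarca5, a chromatin remodeller of this and the previous list, differed by -0.12 (adjusted p = 0.412) by its brightest probe set, while another of its probe sets was called lower (-0.31, SE 0.069, adjusted p = 0.0843). Nr2c2, a nuclear receptor, differed by -0.37 (SE 0.14, adjusted p = 0.274), with 2 other probe sets of the opposite sign, and Cdk9, the kinase that releases paused RNA polymerase, by -0.21 (SE 0.088, adjusted p = 0.308).

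Among mitochondrial substrates, 1 of 19 measured genes of 20 fell and 0 rose, and the median was 0.0024. The gene that fell was Mccc1, a subunit of the methylcrotonoyl-CoA carboxylase of leucine breakdown. Its log2 expression was 9.23, 9.0, 9.12 and 8.73 on SIRT7 KO arrays 1 to 4, against 9.75, 9.33, 9.69 and 9.51 on WT arrays 1 to 4. The SIRT7 KO values all lay below the WT values, and the difference was -0.55 (SE 0.13, adjusted p = 0.0901). This call was lost without SIRT7 KO array 2 or 4 or WT array 1 or 3, with adjusted p between 0.166 and 0.219. With the GAPDH covariate it was lost at a difference of -0.61 (SE 0.18, adjusted p = 0.316). Slc25a5, an ADP/ATP carrier, was not called by its brightest probe set (0.14, adjusted p = 0.416), while another of its 8 probe sets was called higher (0.45, SE 0.11, adjusted p = 0.0936). Otc, the ornithine transcarbamylase of the urea cycle, differed by -0.25 (SE 0.079, adjusted p = 0.177), also with no overlap.

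Substrates of SIRT2 had the largest median of the 8 lists, 0.31 over 6 measured genes of 8, but 0 were called and 1 was at an unadjusted p under 0.05 by limma. That gene, the tubulin Tuba4a, differed by -0.23 (SE 0.10, adjusted p = 0.335, 1 other probe set of the opposite sign), against the sign of the median, while Tuba1a differed by 0.29 (SE 0.16, adjusted p = 0.458). Tubulin genes are alike in sequence, so their probe sets can share signal.

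**Figure D5:**
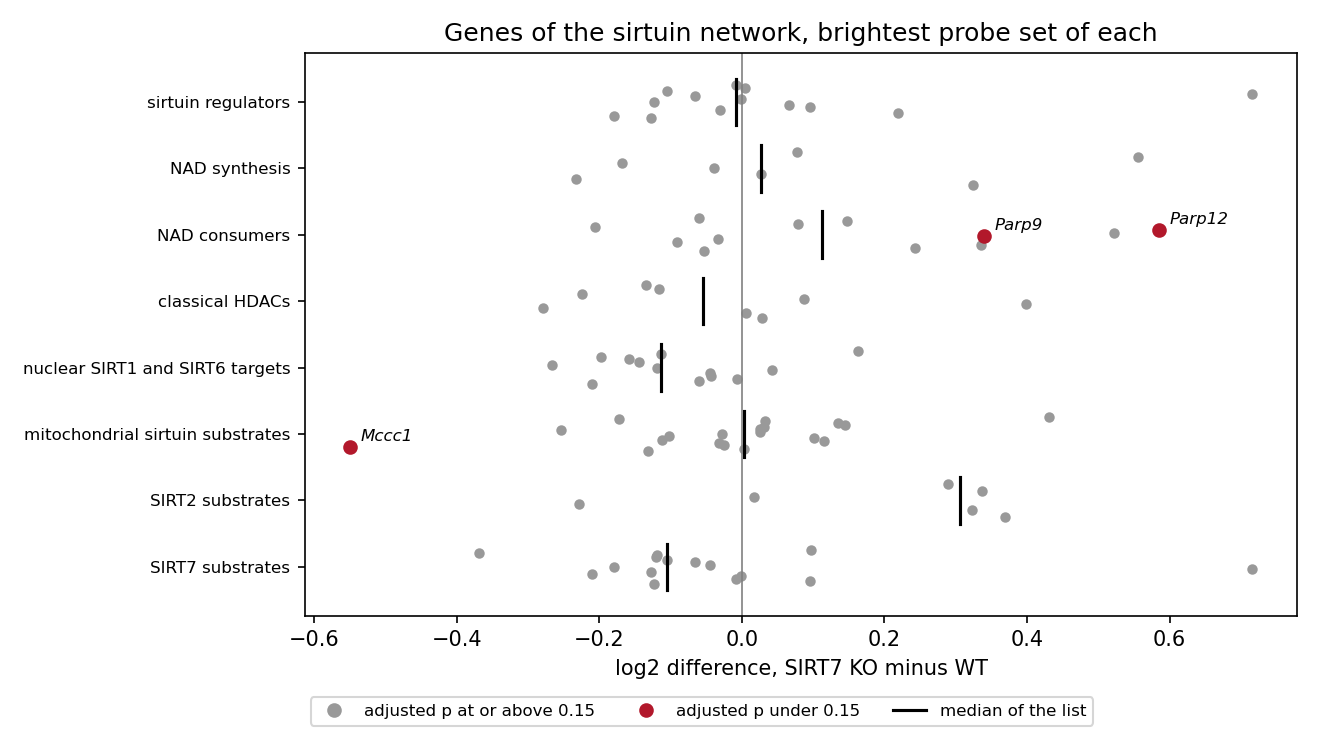
Log2 difference (SIRT7 KO minus WT) of the genes of 8 lists around the sirtuins, 1 point for each gene by its brightest probe set, genes past an adjusted p of 0.15 in red and the median of each list as a black line. Of the red points, Parp12 (0.59) and Parp9 (0.34) lie right of 0 and Mccc1 (-0.55) left of it. The point furthest right, Myc (0.72, SE 0.55, limma adjusted p = 0.605), was not called. The medians lie between -0.11 and 0.31.

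Among markers of other liver cells, in lists whose measured sizes are given below, 4 genes were called, where 2.17% of all genes were called higher and 2.48% lower. Stellate cell markers averaged 7.46 to 7.90 log2 units on SIRT7 KO arrays and 6.89 to 7.52 on WT arrays. By the brightest probe sets all 8 differences were positive. Of these, 2 were called, Dcn (0.41, adjusted p = 0.103) and Acta2 (0.61, adjusted p = 0.128, with 1 other probe set of the opposite sign). Each of these calls was kept in 2 of 8 fits that left out 1 array and was lost with the replicate block (adjusted p = 0.195 for Dcn and 0.192 for Acta2) and with the GAPDH covariate (0.455 and 0.514). In the fit with that covariate the differences were 0.35 (SE 0.14) for Dcn and 0.48 (SE 0.23) for Acta2. Macrophage markers averaged 9.19 to 10.07 in SIRT7 KO and 8.91 to 9.92 in WT livers. By the brightest probe sets all 8 differences were positive and 0 were called by limma, also at an unadjusted p under 0.05. Csf1r had 2 other probe sets of the opposite sign. Of 8 endothelial markers, Lyve1 was called higher (1.21, SE 0.21, adjusted p = 0.0463, but 0.202 with the GAPDH covariate), while 5 of the 8 differences were negative and the median was -0.049. Of 7 T and NK cell markers, 3 differences were positive and Cd3g was called lower (-0.39, SE 0.11, adjusted p = 0.137). Its level was low, at 4.38 in SIRT7 KO and 4.77 in WT livers, near the lower quartile of probe set means (4.56). The call of Cd3g was kept in 2 of 8 fits that left out 1 array, and was lost with spike-in scaling (adjusted p = 0.281) and the replicate block (0.183). It was also lost with the GAPDH covariate, at a difference of -0.54 (SE 0.14, adjusted p = 0.26). Cholangiocyte (5 measured), B and plasma cell (4), neutrophil (3) and erythroid (3) markers held no call by limma, with 1 erythroid marker at an unadjusted p under 0.05. Single arrays stood apart in the neutrophil markers. S100a8 had 6.53, 5.22, 7.13 and 11.41 on SIRT7 KO arrays 1 to 4. On WT arrays 1 to 4 it had 5.85, 12.22, 11.56 and 5.62, so that SIRT7 KO array 4 and WT arrays 2 and 3 were high. S100a9 was high on the same 3 arrays. WT array 3, which decided the call of Sirt1, had the lowest Sirt1 value (7.20). However, WT array 2 had the highest Sirt1 value (7.85), and SIRT7 KO array 4 had 7.48. The part of all these markers in the values of the sirtuins and of the listed genes was not tested.

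Genes whose expression followed each sirtuin most closely were listed by the highest positive Pearson correlation over the 8 arrays, among the 6923 genes brighter than the median, as a description. The points share their genotype and their array, and with 8 arrays a high correlation arises easily among so many genes. For Sirt7, they were Pcyt2 (r = 0.991), Hexim1 (0.990) and Smc1a (0.989), over arrays on which the genotypes were far apart. Hexim1, an inhibitor of the transcription elongation kinase P-TEFb, fell by 0.54 (SE 0.062, adjusted p = 0.0136), and Smc1a, a cohesin subunit, differed by -0.18 (SE 0.055, adjusted p = 0.179). Sirt1 was followed by Cyb5a (0.959), Abcc2 (0.947) and Rnd3 (0.944), each of which, like Sirt1, was lowest on WT array 3. Sirt2 was followed by Mrpl24 (0.962), Gnai3 (0.961) and Fbrs (0.942). For Sirt3 they were 1600014C10Rik (0.956), Csnk2a1 (0.950) and Smad5 (0.937), and for Sirt4 Masp2 (0.952), Pabpc1 (0.950) and Rps9 (0.900). The genes listed for Sirt4 were, like Sirt4, each lowest on SIRT7 KO array 2.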

How the data were processed

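Total RNA from livers of 4 SIRT7 KO and 4 WT mice was hybridised to 1 Affymetrix GeneChip mouse array each. The authors deposited log2 expression values per probe set, background-corrected, normalized between arrays and summarised over probes. The study's methods name RMA and the submitters' processing notes name GCRMA. Which of them made the values is unknown, and its version is not given in the sources used here. GCRMA subtracts more background, so the choice could change the fold of dim probe sets such as Sirt7 in SIRT7 KO.

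Of 22690 probe sets, 64 controls were left out and 22626 tested with limma 3.58.1 in R 4.3.3 (lmFit and eBayes, genotype only, two-sided, Benjamini-Hochberg over all of them, called at an adjusted p under 0.15, with 0.05 as the stricter alternative). Genes were named from the platform annotation, which gave 1 symbol for 20380 probe sets, several for 691 and none for 1555, and a gene was represented by its brightest probe set (12393 genes). Probe sets without a single symbol entered the fit unnamed. The number of arrays limits the precision.

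Members, lists and motifs were chosen with earlier results of these data known. Named genes were all sirtuin probe sets, the called members of each list or else the 2 with the smallest p, the nearest measured neighbours, and the 3 genes most alike to each sirtuin. Single array measures were compared by exact permutation tests. The fit was tested on simulated data with independent noise for each probe set and array, so technical shifts shared by an array or a genotype were not simulated. Alternatives were other variance models, array weights, normalizations, scalings, filters, the probe sets of a gene averaged, a GAPDH covariate, a replicate block and leaving out each array. Sequences, gene positions and neighbours came from RefSeq (GRCm38.p6), where all 7 sirtuins had a promoter window.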

Additional observations from a re-analysis of the deposited data

Results flagged for a closer look

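In SIRT7 KO livers, Sirt3 had 1 array far from the others. SIRT7 KO array 1 had a log2 expression of 9.90 and the nearest other SIRT7 KO array 9.57, a gap of 0.871 of the range of the group. Sirt4 had SIRT7 KO array 2 at 5.59 and the nearest other SIRT7 KO array at 6.01, a gap of 0.878 of the range. Both gaps exceeded Dixon's 95% critical value for 4 samples. Chance marks about 1 in 20 groups, and 10 groups were tested. The arrays that stood apart were different ones, and WT array 3 in Sirt1, which changed the call of that gene, did not pass this criterion.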

How the results depend on the processing

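Over 19 alternatives Sirt7 stayed between -4.30 and -4.05 log2 units, with adjusted p from 7.47e-08 to 0.00038, and Sirt3 between -0.35 and -0.023 without being called. Sirt1 lay between -0.34 and -0.13 when 1 array was left out, and was called only without WT array 3 (adjusted p = 0.114), so that the number of sirtuins called was 1 to 2. Sirt2 (0.072) and Sirt4 (0.026) were reversed by scaling to the spike-ins, which left 5.22% of all calls lower in SIRT7 KO, against 55.5% without it, and the cause was not tested. The number of probe sets called over all was 975. It was 156 at an adjusted p under 0.05, 3101 with spike-in scaling, 43 with the GAPDH covariate and 222 to 900 when 1 array was left out, the lowest without WT array 1. With the replicate number as a block it was 628, Sirt7 remained at -4.21 (adjusted p = 0.00038) and no sirtuin changed its call. Deviations from the genotype mean had r between -0.252 and 0.255 for arrays with the same number. For arrays with different numbers r lay between -0.437 and 0.314. With 4 arrays in each genotype, these values cannot tell whether the numbers pair the samples. Averaging the probe sets of a gene gave 2 calls among mitochondrial substrates, against 1, the addition being Slc25a5 (0.23, adjusted p = 0.133).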
